A study of Rattus norvegicus with 20 samples.

Results

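The genes described here are 10 members of the FOXO pathway: the forkhead transcription factors Foxo1 and Foxo3, the PI3K brake Pik3ip1, and the FOXO target genes Txnip, Sesn1, Sesn3, Irs2, Ccng2, Fbxo32 and Trim63. They were taken by symbol from a count table of 17337 genes, in which all 10 were listed. They were chosen by pathway and in part by measured values, since Pik3ip1 and Trim63 were known to be among the large falls with stretch. The values of the 10 genes under stretch are therefore given as a description with no test, and tests are kept for the inhibitor and for pathway genes outside the 10. After a filter on low counts, 8320 genes were tested, among them 9 of the 10; Foxo3 was below the filter.

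The study stretched rat alveolar epithelial cells with and without an inhibitor of PERK, a kinase of the endoplasmic reticulum stress response. Type II cells from Sprague-Dawley rats were grown for 4 days on elastic membranes coated with fibronectin, where they take on features of type I cells, the thin cells that line the alveolus. Each library came from 1 animal and pooled 4 replicate monolayers, and each of 5 animals gave 1 library to each of 4 groups, 20 in all. The NS group was unstretched and had 0.01% DMSO for 24 h. The S group had the same vehicle for 18 h and was then stretched cyclically and biaxially for 6 h, at 15 cycles per minute and a 25% change in surface area. The NS_PI group was unstretched with 1 µM GSK2606414, the PERK inhibitor, for a time that the protocol gives as 24 h and another label as 18 h. The S_PI group had the inhibitor for 18 h and was then stretched for 6 h in the same way. The labels give no age or sex, no vehicle for the inhibitor groups and no batch.

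FOXO factors are the main transcriptional arm that insulin and growth factor signalling switches off. When PI3K makes its lipid messenger, AKT and the related kinase SGK1 phosphorylate FOXO proteins, which then leave the nucleus. When the signal is low, FOXO proteins bind DNA and switch on genes for cell cycle arrest, antioxidant defence, autophagy and protein breakdown, and genes such as Irs2 and Sesn3 that act back on the pathway. PERK has also been described as a kinase of FOXO proteins. Most of this control acts on the protein, which transcript counts do not measure.

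Promoter sequences of the members were searched for short words, some of which FOXO factors are known to read, as a description with no test. Those of Pik3ip1 and Trim63, the pair with the largest differences of the 10 in S against NS, are printed here. Of the 10 genes, 6 had a window in the RefSeq promoter table (build GRCr8): Foxo1, Pik3ip1, Sesn1, Sesn3, Ccng2 and Trim63. The 250 bases before each start were searched on both strands for GTAAACA, the FOXO core, for CAAAACA, the word of insulin response units, and for CACGTG, the E-box read by MondoA and ChREBP among others. In the sequences below, capitals mark a match; Trim63 is shown up to the first base of its gene record.
Pik3ip1, chr14:82428065-82428314, plus strand: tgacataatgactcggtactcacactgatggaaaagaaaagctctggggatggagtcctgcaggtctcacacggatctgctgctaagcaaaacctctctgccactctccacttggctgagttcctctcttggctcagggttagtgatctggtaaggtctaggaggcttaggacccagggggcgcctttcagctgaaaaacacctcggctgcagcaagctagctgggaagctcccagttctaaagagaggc
Trim63, chr5:151816986-151817208, plus strand: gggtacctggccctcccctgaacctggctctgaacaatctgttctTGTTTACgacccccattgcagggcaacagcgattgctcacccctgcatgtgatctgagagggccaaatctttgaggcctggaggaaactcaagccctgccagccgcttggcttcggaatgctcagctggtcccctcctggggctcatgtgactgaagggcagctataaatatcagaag
The Trim63 window holds the FOXO core on the minus strand, printed as TGTTTAC, 205 to 199 bases before the start. The Pik3ip1 window holds none of the 3 words, and neither do those of Foxo1, Sesn1 and Sesn3. The Sesn1 window has 0 bases before its gene record and the Sesn3 window 130 of 250, so the rest of each lies inside the record. Ccng2 holds CAAAACA 57 to 51 bases before its start. Over all 33469 windows of 250 bases, GTAAACA was in 3.21%, CAAAACA in 5.46% and CACGTG in 5.59%. The Foxo1, Sesn1 and Sesn3 windows were rich in G and C, at 74.4%, 69.6% and 70.8%, against 53.2% for Pik3ip1, 56.8% for Trim63, 57.2% for Ccng2 and a median of 51.2% over all windows.

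RNA was sequenced from its 3' end, a design in which 1 transcript gives about 1 read whatever its length. Only reads assigned to a gene are counted, so the levels of different genes need not rank as their transcripts do. Over all libraries, for example, Col1a1 averaged 5490 CPM and Col1a2 1.63 CPM. Counts assigned to genes ranged from 999209 in S animal 4 to 3131541 in S animal 2. Levels are in CPM, counts scaled to a common library size and adjusted for composition (TMM), and 3 counts, the limit that a count of 0 allows, stood for 1.07 to 3.05 CPM. Of 12 type I markers 10 passed the filter, Ager and Pdpn among them, while Aqp5 was below it and at 0 in animal 4. The summed type I markers were higher in animals 1 to 3 than in animals 4 and 5, at 6120, 5756, 4509, 1603 and 1828 CPM in NS and 2928, 5285, 4332, 994 and 1015 CPM in S. Of the 10 tested, 5 fell and none rose in S against NS, and 8 fell and 1 rose in S_PI against NS_PI. Beside these and the marker counts that follow, 12.4% of all tested genes fell and 12.5% rose in S against NS. In S_PI against NS_PI, 15.3% fell and 15.2% rose. Of 10 tested macrophage and leukocyte markers 5 rose in S against NS and 6 in S_PI against NS_PI, and none fell. Their sum ranged from 1583 to 10490 CPM in NS and from 2115 to 13890 CPM in S, with animal 1 lowest in every group. Lyz2 was the largest part of that sum, at a mean of 4920 CPM over all libraries, beside 718 CPM for Laptm5, the next. With 1 animal left out, 3 to 6 and 3 to 8 leukocyte markers rose in the 2 comparisons, and 3 to 5 and 4 to 8 type I markers fell. Of 5 tested fibroblast markers, Col1a1 rose in both comparisons (0.61 ± 0.19 and 0.64 ± 0.19, edgeR adjusted p = 0.023 and 0.0146, 5 of 5 animals each), and with inhibitor Dcn rose and Pdgfrb fell. The Col1a1 call in S against NS was lost without animal 4 or 5 (adjusted p = 0.0584 and 0.0865), that of Dcn without animal 1 (0.0819) and that of Pdgfrb without animal 1, 2 or 4 (0.0601 to 0.0671). The fibroblast sum, highest in animals 4 and 5 of every group, was 2788, 2746, 3716, 6287 and 6500 CPM in NS and 6161, 3403, 3839, 9497 and 11368 CPM in S. It was higher with stretch in 5 of 5 animals, as it was with inhibitor (2661 to 9392 CPM in NS_PI, 3336 to 12812 in S_PI). Col1a1 made up most of this sum, with Col3a1 next at a mean of 553 CPM over all libraries, so the sum largely repeats the Col1a1 result. Of 4 tested smooth muscle markers, Cnn1 fell both times and Des rose with inhibitor, a call lost without animal 4 (0.0652), and their sum ranged from 603 to 1152 CPM in NS and from 627 to 2659 CPM in S. None of 9 tested type II markers was called. None of 6 endothelial markers passed the filter, and Cdh5 and Cldn5 were at 0 in all libraries. In such bulk samples, fewer cells of a type and less RNA per cell cannot be told apart, and the part of these markers in the results below was not tested.

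Foxo1 was counted at a low level in every library, and Foxo3 was hardly counted at all. Foxo1 stood at 5.08, 7.89, 6.82, 5.89 and 5.97 CPM in NS, in animals 1 to 5 in that order as in all lists below, and at 7.04, 4.996, 4.94, 14.2 and 15.5 CPM in S. With inhibitor it stood at 5.12, 3.33, 3.16, 7.43 and 8.91 CPM in NS_PI and 5.16, 7.32, 9.91, 5.34 and 10.9 CPM in S_PI. The groups overlapped throughout, and the 2 highest libraries were S animals 4 and 5. The stretch difference was 0.42 ± 0.32 on the log2 scale (fitted log2 fold change ± SE), with 3 of 5 animals higher, and 0.52 ± 0.34 with inhibitor, with 4 of 5 higher. Single animals moved these values: the first was 0.73 without animal 2, 0.22 without animal 4 and 0.18 without animal 5, and the second was 0.26 without animal 3. Foxo3 had 10 counts over the 20 libraries, none above 3 in a library, and 13 libraries were at 0. With so few counts Foxo3 could not be followed. Whether few transcripts or reads not assigned to its symbol account for this was not tested. The paralog Foxo4, a FOXO factor under the same AKT control, was measured at 28.2 ± 4.104 CPM (mean ± SD, n = 5) in NS and 38.5 ± 8.83 CPM in S, a difference of 0.44 ± 0.17 that missed the threshold (edgeR adjusted p = 0.0677, 4 of 5 animals higher) and passed it without animal 1 (0.63, adjusted p = 0.00855). Foxo6 is not analysed here.

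**Figure D1:**
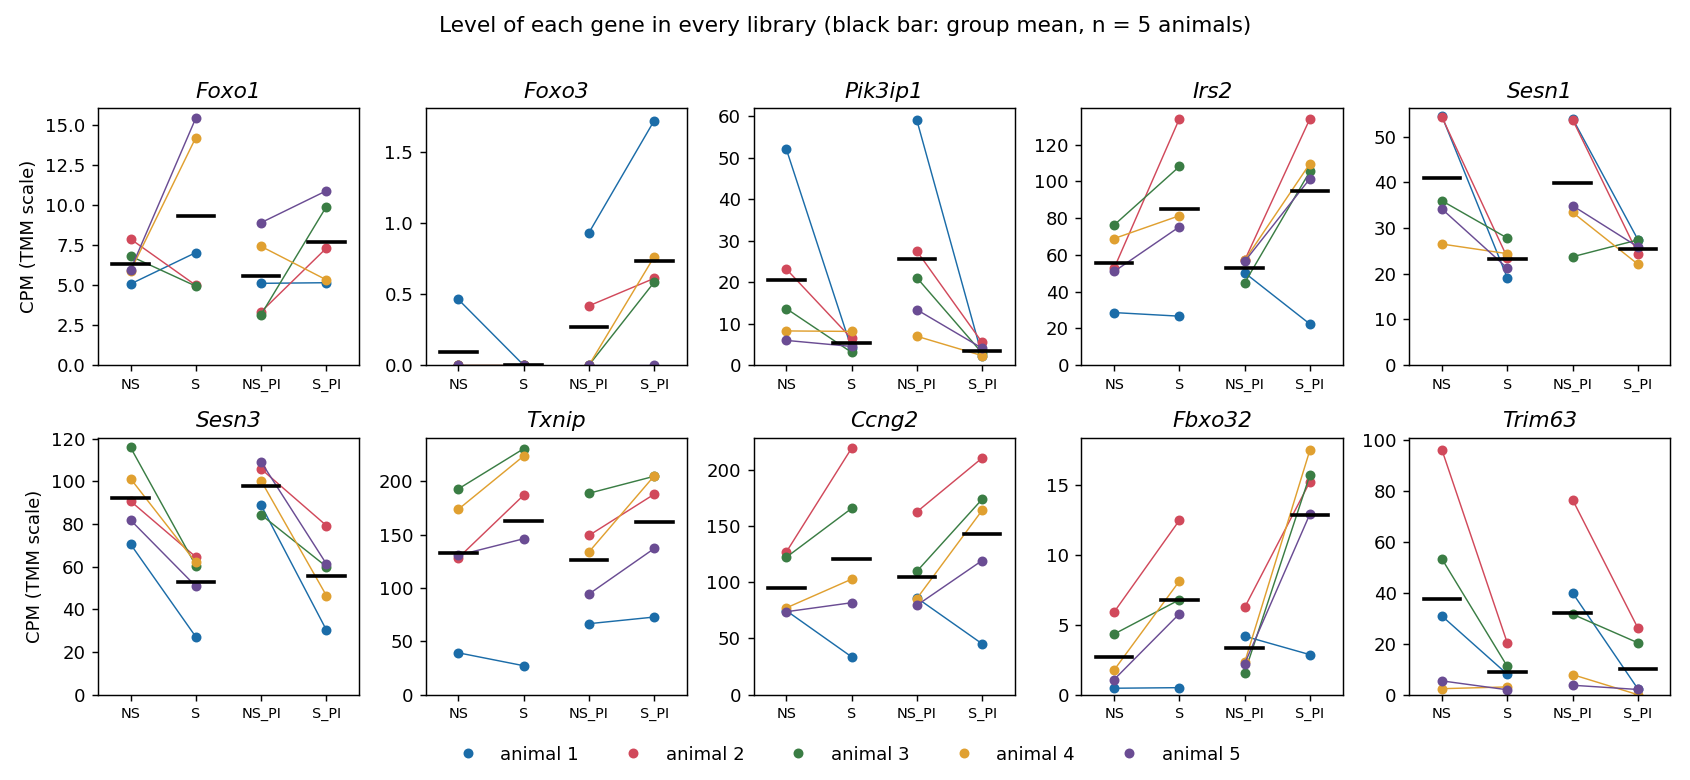
Each panel plots the level of 1 gene (vertical axis, CPM on the TMM scale, from 0) in the 5 libraries of each group; points are animals, lines join the unstretched and stretched library of an animal, and black bars are group means. Pik3ip1, Trim63, Sesn1 and Sesn3 lie lower in the stretched groups, Fbxo32 higher, and animal 1 has the lowest Txnip in every group.

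Pik3ip1, a membrane protein that binds the catalytic subunit of PI3K and restrains it, had the largest difference of the 10 under stretch with inhibitor. It stood at 52.2, 23.2, 13.6, 8.25 and 5.97 CPM in NS and at 4.02, 6.42, 3.09, 8.13 and 4.51 CPM in S. Animals 1 to 3, the highest when unstretched, stood at 3.09 to 6.42 CPM once stretched, and animal 4 hardly differed between its libraries. With inhibitor the level was 59.1, 27.5, 21.1, 6.97 and 13.4 CPM in NS_PI and 2.29, 5.49, 2.92, 2.29 and 4.09 CPM in S_PI. All 5 S_PI libraries were below all 5 NS_PI libraries, whereas NS and S overlapped. Such a separation downward was seen for 6.60% of tested genes in S_PI against NS_PI and 3.89% in S against NS. The fitted level was 3.73-fold lower without inhibitor (log2 -1.90 ± 0.42) and 6.79-fold lower with it (-2.76 ± 0.44), in 5 of 5 animals each time. These were the 35th and the 9th lowest of 8320 fold changes, low ranks being part of why Pik3ip1 was chosen. The stretched values rest on few reads, 46 counts over the S libraries and 27 over the S_PI libraries, against 207 and 266 over NS and NS_PI. Without animal 1, which had the highest unstretched level, the differences were -1.28 and -2.18.

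The unstretched level of Pik3ip1 was highest in animals 1 to 3, those with the high type I marker sums given above. Trim63 was likewise higher in animals 1 to 3 than in animals 4 and 5 in NS and NS_PI, and Sesn1 in NS only, since in NS_PI animal 3 had its lowest level. Whether the 3 genes and the type I markers fall together was not tested. Over the 20 libraries, 58.3% of the variation of Pik3ip1 in log2 CPM went with stretch and 14.5% with the animal. The genes whose pattern was most like it, by Pearson's r of log2 CPM after subtracting each animal's mean over the 20 libraries, were Marveld1 and Trim2 (r = 0.94 each), and Galnt2, Vill and Prr15 (0.93 each). Such values of r describe libraries that share the same stretch contrast.

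Irs2, the adaptor that carries the signal from the insulin and IGF1 receptors to PI3K, was on average higher in stretched cells. It stood at 28.6, 52.8, 76.3, 68.9 and 50.98 CPM in NS and 26.7, 134, 108, 81.3 and 75.3 CPM in S, and at 50.3, 57.1, 44.8, 57.1 and 56.4 CPM in NS_PI and 22.3, 134, 106, 109.8 and 102 CPM in S_PI. In animals 2 to 5 the stretched library was the higher one both times, and in animal 1 the lower one, so the groups overlapped. The fitted differences were 0.56 ± 0.25 and 0.65 ± 0.26, and 0.70 and 1.06 without animal 1. Without animal 2, the difference in S against NS was 0.34. Its paralog Irs1 was below the filter, with at most 2.92 CPM.

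Sesn1 and Sesn3 encode sestrins, proteins that hold back mTORC1 when amino acids are scarce or cells are stressed, and both were lower in stretched cells. Sesn3 stood at 70.6, 90.8, 116, 101.3 and 81.9 CPM in NS and at 27.2, 64.6, 60.6, 62.03 and 50.9 CPM in S. With inhibitor it stood at 88.9, 106, 84.4, 100.3 and 109 CPM in NS_PI and 30.4, 79.3, 60.1, 46.5 and 61.3 CPM in S_PI. The stretched and unstretched libraries of Sesn3 did not overlap in either comparison. Such a separation downward was seen for 3.89% of tested genes in S against NS and 6.60% in S_PI against NS_PI. The differences of single animals ran from -1.34 to -0.48 without inhibitor and from -1.51 to -0.41 with it. The fitted differences were -0.83 ± 0.17 and -0.86 ± 0.17, or 1.78-fold and 1.82-fold lower.

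Sesn1 stood at 54.5, 54.3, 35.97, 26.5 and 34.2 CPM in NS and 19.1, 23.6, 27.8, 24.4 and 21.2 CPM in S, and at 53.97, 53.8, 23.7, 33.4 and 34.9 CPM in NS_PI and 27.5, 24.4, 27.4, 22.1 and 25.9 CPM in S_PI. The 10 stretched libraries lay close together, between 19.1 and 27.8 CPM, while the unstretched ones spread from 23.7 to 54.5 CPM. The differences were -0.81 ± 0.21, with 5 of 5 animals lower, and -0.62 ± 0.21, with 4 of 5 lower and animal 3 higher. The third sestrin, Sesn2, a known target of the stress factor ATF4, differed in the other direction in S against NS: it rose from 136 ± 54.2 CPM in NS to 203 ± 61.3 CPM in S (0.59 ± 0.19, 5 of 5 animals, edgeR adjusted p = 0.0298). That call was lost without animal 2, 4 or 5 (adjusted p = 0.0847, 0.149 and 0.0526), and with library size as the only scaling (0.0655). With inhibitor its difference was 0.46 ± 0.19, with animal 1 lower and 4 of 5 animals higher, which missed the threshold (edgeR adjusted p = 0.0774).

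Txnip, which binds thioredoxin and lowers glucose uptake, followed the animal more than the treatment. It stood at 39.2, 128, 193, 174 and 131 CPM in NS and 27.2, 187, 231, 224 and 146 CPM in S, and at 66.5, 149, 189, 134 and 94.3 CPM in NS_PI and 72.8, 188, 205, 205 and 137 CPM in S_PI. Animal 1 was lowest in all 4 groups and the groups overlapped. The animal accounted for 84.1% of its variation in log2 CPM and stretch for 2.43%. The differences were 0.22 ± 0.19, with 4 of 5 animals higher, and 0.33 ± 0.19, with 5 of 5 higher; the first was 0.34 without animal 1. The gene most like Txnip in pattern was Cdk1 (r = 0.93), the kinase that drives entry into mitosis. Animal 1 was also the animal with the lowest leukocyte marker sum in every group, a sum of which Lyz2 is the largest part. The part of that difference in the Txnip level was not tested. Of the other arrestin domain genes, Arrdc3, Arrdc4 and Arrdc5 were below the filter. Arrdc1 fell under stretch with inhibitor (-0.73 ± 0.20, 5 of 5 animals, edgeR adjusted p = 0.00787). Arrdc2 had mean levels of 3.86, 6.68, 8.47 and 7.38 CPM in NS, S, NS_PI and S_PI, and no comparison of it passed the threshold.

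Ccng2, an unusual cyclin linked to arrest of the cell cycle, also split by animal. It stood at 74.8, 127, 122, 77.2 and 73.8 CPM in NS and 33.7, 219, 166, 103 and 81.8 CPM in S, and at 86.1, 163, 109.7, 85.5 and 79.5 CPM in NS_PI and 45.3, 210.5, 174, 164 and 119 CPM in S_PI. Animals 2 to 5 were higher when stretched, and animal 1 was lower, by 1.12 log2 units without inhibitor and by 0.91 with it. The fitted differences were 0.18 ± 0.23 and 0.35 ± 0.23, and 0.48 and 0.63 without animal 1. Without animal 2 the difference in S against NS was 0.018, and without animal 4 that with inhibitor was 0.19. Its paralog Ccng1, better known as a target of p53, fell from 372 ± 169.5 CPM in NS to 263 ± 121 CPM in S (-0.48 ± 0.14, 5 of 5 animals, edgeR adjusted p = 0.0174), a call lost without animal 2 (-0.32, adjusted p = 0.129) or animal 3 (-0.48, 0.0516).

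Fbxo32 and Trim63 encode atrogin-1 and MuRF1, the ubiquitin ligases that FOXO factors switch on in wasting skeletal muscle, and here they differed in opposite directions under stretch. Trim63 stood at 30.9, 96.2, 53.3, 2.36 and 5.42 CPM in NS and 8.05, 20.3, 11.1, 3.05 and 1.93 CPM in S. With inhibitor it stood at 40.01, 76.7, 31.6, 7.896 and 3.71 CPM in NS_PI and 2.29, 26.2, 20.4, 0 and 2.04 CPM in S_PI, the 0 being animal 4, where up to 2.29 CPM could have gone uncounted. It was high in the unstretched libraries of animals 1 to 3 and low in those of animals 4 and 5, so the groups overlapped. The fitted level was 3.94-fold lower without inhibitor (log2 -1.98 ± 0.35, 4 of 5 animals) and 3.505-fold lower with it (-1.81 ± 0.35, 5 of 5). Animals 4 and 5 add little to these tallies, except for animal 4 with inhibitor, which went from 17 counts to 0. Most of their other libraries were near the 3 counts that a count of 0 allows. Animals 4 and 5 had 4 and 10 counts in NS, 3 and 3 in S, 17 and 5 in NS_PI, and 0 and 3 in S_PI. Without animal 1 the difference with inhibitor was -1.32. The animal accounted for 68.1% of the variation in log2 CPM and stretch for 21.4%.

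Fbxo32 was the reverse: it stood at 0.462, 5.92, 4.34, 1.77 and 1.08 CPM in NS and 0.503, 12.5, 6.798, 8.13 and 5.79 CPM in S, and at 4.19, 6.25, 1.58, 2.32 and 2.23 CPM in NS_PI and 2.86, 15.3, 15.7, 17.5 and 12.95 CPM in S_PI. In S_PI, 4 of 5 libraries were above every other library of NS, NS_PI and S, and animal 1 was the exception at 2.86 CPM. These levels rest on 1 to 12 counts a library in NS, 1 to 35 in S, 3 to 15 in NS_PI and 5 to 27 in S_PI, and Fbxo32 passed the filter through its stretched libraries. The fitted level was 2.42-fold higher in S than in NS (1.28 ± 0.48) and 3.61-fold higher in S_PI than in NS_PI (1.85 ± 0.43). The 107th and the 43rd highest of 8320 fold changes were those of Fbxo32. Fbxo25, its closest paralog, had mean levels of 9.82 CPM in NS and 8.40 CPM in S. Trim54 and Trim55, the paralogs of Trim63, were below the filter.

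Since both ligases are known from muscle, striated muscle genes were read beside them. Of 11 such markers, 9 were below the filter, and Ckm, Myh4, Myh7 and Mb were at 0 in all libraries. The 2 that passed fell: Acta1, skeletal alpha-actin, by 1.67 and 2.46 on the log2 scale (edgeR adjusted p = 0.000575 and 2.26e-05, 5 of 5 animals each) and Tnnt2, cardiac troponin T, by 0.82 and 0.92 (edgeR adjusted p = 0.0261 and 0.0104, 5 of 5 each), without and with inhibitor. The Tnnt2 calls were lost without animal 1 (-0.39, adjusted p = 0.175) or 2 (0.0574), and with inhibitor without animal 5 (0.0679). The summed markers ranged from 62.9 to 491 CPM in NS, 27.5 to 306 in S, 64.6 to 421 in NS_PI and 20.6 to 51.6 in S_PI. Acta1 was highest in animal 1 of every group, at 455 CPM in NS, whereas Trim63 was highest in animal 2 of every group. The part of these genes in the Trim63 difference was not tested.

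**Figure D2:**
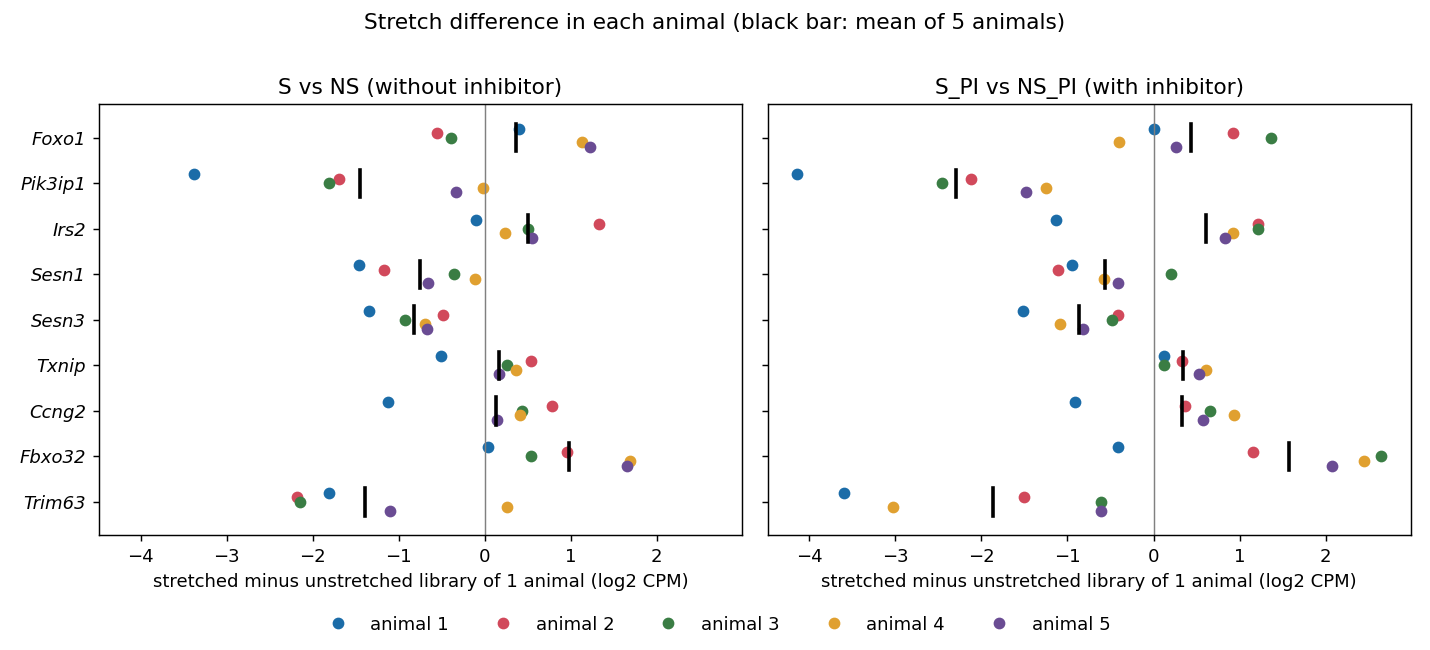
The horizontal axis gives the stretched minus the unstretched library of each animal in log2 CPM, without inhibitor (left) and with it (right), for the 9 tested genes; points are the 5 animals and black bars their mean. Every animal lies below 0 for Pik3ip1 and Sesn3 on both sides, and animal 1 lies apart from the others for Ccng2 on both sides and for Irs2 and Fbxo32 on the right.

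The scaling of the libraries shifted all genes without turning these differences. When libraries were scaled by size alone, the called genes split into 722 higher and 1425 lower in S against NS, where the main scaling gives 1044 and 1031, and into 957 and 1677 in S_PI against NS_PI, where it gives 1263 and 1271. That scaling moved the median of all genes from -0.01 to -0.12, and from -0.02 to -0.12 with inhibitor. The 9 fold changes kept their direction in both comparisons under every alternative run, the range of Pik3ip1 in S against NS being -2.21 to -1.28. On the list of genes lower by more than 2-fold, which held 4.63% of tested genes in S against NS, Pik3ip1 and Trim63 were the members inside. Their place there follows from their choice as large falls. Sesn3 and Sesn1 were the members nearest to the list outside it.

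The header of the authors' deposited DESeq2 table does not state which groups it compares. Its log2 values had signs opposite to those of S against NS here, with r = -0.99 over 8176 matched genes. It was therefore read as the same comparison in the other order, and its signs are reversed in what follows. In the authors' deposited table, Trim63 was at -1.47, Pik3ip1 at -1.25, Sesn3 at -0.74 and Sesn1 at -0.69 on the log2 scale. Fbxo32 was at 0.86 in the authors' deposited table, Irs2 at 0.52, Foxo1 at 0.35, Txnip at 0.22 and Ccng2 at 0.19. These values and the fitted ones above come from the same libraries. For every one of the 9 but Ccng2 the deposited value is closer to 0 than the fitted one.

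The question put by the inhibitor groups is whether blocking PERK alters these genes at rest or under stretch. None of the 9 tested genes differed past the threshold in NS_PI against NS, in S_PI against S, in the interaction (the stretch difference with inhibitor minus that without) or in the average of both inhibitor comparisons, by edgeR or by DESeq2. Over all genes, edgeR called 0% of genes in NS_PI against NS, 0% in S_PI against S, 0% in the interaction and 0.0240% in the average, which is 2 genes. At an unadjusted p below 0.05, 455, 340, 345 and 423 genes stood in those comparisons, and DESeq2 called 4, 0, 0 and 7. The comparisons share libraries with one another and with the stretch comparisons.

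Fbxo32 and Pik3ip1 had the largest inhibitor differences of the 9 in stretched cells, in opposite directions. Fbxo32 was higher in S_PI than in S in 5 of 5 animals, by 0.99 ± 0.39 on the log2 scale (95% interval 0.17 to 1.81, unadjusted p = 0.0199, edgeR adjusted p = 0.999). Averaged over unstretched and stretched cells it was higher by 0.70 ± 0.33 (0.02 to 1.38, 5 of 5 animals, edgeR adjusted p = 0.948), and by 0.43 without animal 1. Pik3ip1 was lower in S_PI than in S in 5 of 5 animals, by 0.53 ± 0.55 in the fit (-1.67 to 0.61, edgeR adjusted p = 0.999), at levels of a few counts; without animal 4 the difference was -0.30. Its stretch difference was the more negative one with inhibitor in 5 of 5 animals, with an interaction of -0.87 ± 0.64 (-2.19 to 0.46, edgeR adjusted p = 0.984). These differences did not pass the correction over all genes, and their intervals are wide.

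For the other genes the intervals set bounds. The stretch difference of Sesn3 with and without inhibitor differed by -0.03, with an interval of -0.53 to 0.47, so that a shift of its stretch difference by more than 0.53 lies outside it. The interactions of Foxo1, Txnip, Sesn1, Irs2, Ccng2 and Trim63 were between 0.09 and 0.19, with intervals that reached from -0.88 to 1.22 for Trim63 and from -0.46 to 0.68 for Txnip. In unstretched cells, the inhibitor differences of the 9 lay between -0.24 (Foxo1) and 0.41 (Fbxo32), with edgeR adjusted p-values from 0.957 to 0.997. The Sesn3 interval there was -0.24 to 0.45.

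**Figure D3:**
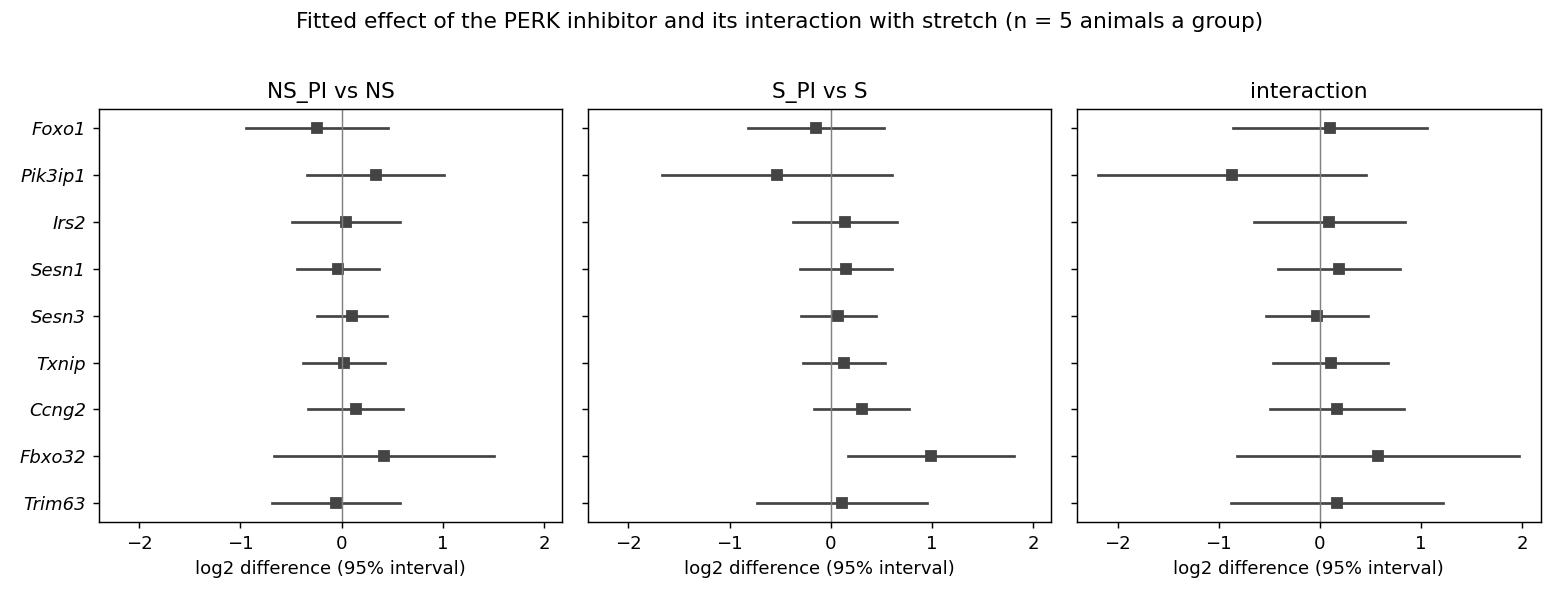
Squares are fitted log2 differences of the 9 tested genes and lines their 95% intervals, for inhibitor against vehicle in unstretched cells (left) and in stretched cells (middle) and for the interaction (right). All intervals cross 0 except that of Fbxo32 in stretched cells, which runs from 0.17 to 1.81 and did not pass the correction over all genes.

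The rest of the pathway was read from 12 lists of genes, 163 genes outside the 10, of which 121 passed the filter. In S against NS 21 of them rose and 11 fell, 26.4% of the 121, beside 24.9% of all tested genes, 12.5% higher and 12.4% lower. In S_PI against NS_PI 24 rose and 13 fell, 30.6%, beside 30.5% of all, 15.2% higher and 15.3% lower. Their median log2 fold changes were 0.05 and 0.04, against -0.01 and -0.02 over all genes. Members of the lists thus passed the test about as often as any gene did. Below, genes that rose or fell with inhibitor did so in S_PI against NS_PI, unless another comparison is named.

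Upstream of FOXO, 4 of 13 tested genes from the insulin and IGF receptors to AKT rose in S against NS and none fell (median -0.16): the receptor Igf1r (1.04 ± 0.33, 4 of 5 animals, edgeR adjusted p = 0.0273), the kinase Sgk1 (1.10 ± 0.34, 5 of 5, 0.0227), Pdpk1 and Pik3ca. Sgk1, which phosphorylates FOXO proteins as AKT does, went from 141 ± 67.4 CPM in NS to 285 ± 91.6 CPM in S. In animal 1 it went from 41.1 to 408 CPM, and in the other animals by less. The calls of Igf1r and Sgk1 were lost when single animals were left out (Igf1r without animal 1, 2 or 3, adjusted p = 0.091, 0.14 and 0.0602; Sgk1 without animal 4 or 5, 0.0628 and 0.0726). The Igf1r difference was 0.64 without animal 2, and that of Sgk1 was 0.64 without animal 1, both without and with inhibitor. With inhibitor Sgk1 (1.06) and Pik3ca (0.44) rose and Mlst8, a subunit of both mTOR complexes, fell (-0.71 ± 0.17, 5 of 5, edgeR adjusted p = 0.00323), for a median of -0.05. Insr and the 3 AKT genes were below the filter, so their levels could not be compared.

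Of 14 tested genes listed as brakes of PI3K, AKT and mTORC1, 2 rose and 1 fell in S against NS (median 0.08), and 2 rose and 2 fell with inhibitor (median -0.12). Phlpp1, a phosphatase of AKT, rose without inhibitor (1.11 ± 0.34, 4 of 5 animals, edgeR adjusted p = 0.0207), a call lost without animal 1, 3 or 5 (0.111, 0.077 and 0.0889). Trib2, a pseudokinase, is on this list although it is described as a repressor of FOXO, unlike a brake of AKT. It fell both times (-0.77 ± 0.26 and -1.22 ± 0.26, 5 of 5 animals each, edgeR adjusted p = 0.0336 and 0.00139). The first call was lost without animal 3 or 5 (0.149 and 0.159). Nprl2, part of the complex through which sestrins act on mTORC1, fell with inhibitor (-0.75 ± 0.21, 5 of 5, edgeR adjusted p = 0.0101). Trib3, a pseudokinase that binds AKT and a known target of the PERK branch, was 1 of the 2 genes called in the average inhibitor effect. It had mean levels of 82.3 ± 36.3 CPM in NS, 41.7 ± 18.2 in NS_PI, 109 ± 43.5 in S and 69.3 ± 34.6 in S_PI. Averaged over unstretched and stretched cells, Trib3 was lower with inhibitor than with vehicle by 0.86 ± 0.14 (5 of 5 animals, edgeR adjusted p = 0.0425). That call was lost without animal 2, 3, 4 or 5 (adjusted p = 0.437, 0.245, 0.166 and 0.306). Under stretch, in S_PI against NS_PI, Trib3 rose (0.69 ± 0.21, edgeR adjusted p = 0.0151).

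Among 22 tested modifiers and partners of FOXO proteins, 3 rose and 2 fell in S against NS (median 0.17) and 6 rose and 2 fell with inhibitor (median 0.08). Crebbp, an acetyltransferase of FOXO proteins, stood at 164, 149, 197, 160 and 146 CPM in NS and at 319, 253, 279, 219 and 250.5 CPM in S. All S libraries were above all NS libraries, as for 3.45% of tested genes, and Crebbp rose by 0.69 ± 0.14 (edgeR adjusted p = 0.00112) and, with inhibitor, by 1.04 ± 0.14 (1.68e-05), in 5 of 5 animals each. Prkaa1 and Smad4 rose both times, and Usp7, which removes ubiquitin from FOXO proteins, rose with inhibitor (0.87 ± 0.19, 5 of 5, edgeR adjusted p = 0.00145). The fallers were Stk4 and Mapk9 without inhibitor and Sirt3 and Prkaa2 with it.

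Target genes of the cell cycle did not move as one group. Of 12 tested targets of arrest and DNA repair, 1 rose and 2 fell in S against NS (median -0.16), and 1 rose and 4 fell with inhibitor (median -0.19). Cited2, a transcriptional partner of CBP and p300, rose by 1.32 ± 0.20 and 1.63 ± 0.20 (edgeR adjusted p = 0.000131 and 8.3e-06, 5 of 5 animals each). Cdkn2b, the CDK inhibitor p15, fell by 1.19 ± 0.15 and 1.37 ± 0.15 (edgeR adjusted p = 1.91e-05 and 2.33e-06, 5 of 5 each), from 919.8 ± 373 CPM in NS to 421 ± 242 CPM in S. Cdkn1a and Cdkn1c, the CDK inhibitors p21 and p57, fell with inhibitor (-0.56 and -0.94). A list of 5 tested cell cycle genes linked to FOXO mixes genes described as lowered by it with Mxi1, described as induced. Among them Myc rose both times (1.27 ± 0.32 and 1.64 ± 0.33, 5 of 5 animals each, edgeR adjusted p = 0.00727 and 0.000969) and Mxi1, which opposes Myc, fell without inhibitor (-0.58). Of 5 tested apoptosis targets only Tradd was called, lower both times (-0.90 and -1.12).

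Targets of oxidant defence, metabolism and protein breakdown were called in both directions. Of 9 tested oxidant defence genes, the peroxiredoxin Prdx5 rose both times (0.75 and 0.59), Gpx1 rose and Prdx3 fell without inhibitor (medians 0.01 and 0.09). Of 7 tested metabolic targets, Cpt1a and Glul rose in S against NS and none fell (median 0.28). With inhibitor Cpt1a, Angptl4, Lpl and Eif4ebp1 rose and Pdk2 fell (median 0.47), 5 of 7. Another 8 metabolic targets, G6pc, Pck1, Pdk4 and Igfbp1 among them, were below the filter. Of 20 tested genes of autophagy and protein breakdown, 3 rose and 2 fell in S against NS (median 0.11) and 4 rose and none fell with inhibitor (median 0.02). Fbxo30, the ubiquitin ligase MUSA1 known as a FOXO target in wasting muscle, stood at 19.8, 21.2, 20.5, 20.03 and 22.8 CPM in NS and 56.3, 50.3, 37.1, 36.6 and 40.6 CPM in S, with no overlap, as for 3.45% of tested genes upward. It rose by 1.07 ± 0.19 and 1.36 ± 0.20 (edgeR adjusted p = 0.000565 and 4.86e-05, 5 of 5 animals each), in the direction of Fbxo32 and against that of Trim63. The ubiquitin ligase Cblb also rose both times (0.94 and 0.62), as did Gabarapl1 (0.37 and 0.39).

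Among thioredoxin and arrestin domain genes, 1 of 5 rose in S against NS (median 0.01), Txnrd1, which also rose with inhibitor (0.69 and 0.84). Glucocorticoid response genes were read because glucocorticoids raise Trim63 and Fbxo32 in muscle. Of 10 tested, 3 rose and 1 fell in each comparison (medians 0.21 and 0.34). The receptor gene Nr3c1 rose (0.77 ± 0.16 and 1.04 ± 0.16, 5 of 5 animals each, edgeR adjusted p = 0.00136 and 7.27e-05), and Cebpd, a factor induced by glucocorticoids and by inflammation, fell (-2.13 ± 0.16 and -2.20 ± 0.17, 5 of 5 each, edgeR adjusted p = 4.11e-08 and 2.04e-08). The other calls were Sgk1 and Crispld2, higher in S, and Sgk1 and Klf9, higher in S_PI.

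Leaving out 1 animal removed other calls named above, none of which changed direction. In S against NS, those of Pik3ca (without animal 1, 3 or 5), Pdpk1 (1, 2 or 4), Stk4 (1, 2, 3 or 4), Mapk9 (1, 2, 3 or 5), Mxi1 (1, 2 or 3), Tradd (2, 3 or 5), Gpx1 (1, 2, 3 or 4), Glul (2 or 3), Gabarapl1 (1, 3 or 5), Prkaa1 (2) and Prdx3 (any animal) were lost, at edgeR adjusted p-values of 0.0536 to 0.184. In S_PI against NS_PI, those of Pik3ca (without animal 5), Sgk1 (4 or 5), Trib3 (4), Smad4 (3 or 5), Eif4ebp1 (1, 2 or 4), Sirt3 (1, 4 or 5), Prkaa2 (1, 3 or 4), Cdkn1c (1, 3 or 5), Gabarapl1 (2, 3 or 4), Cblb (3 or 5) and Klf9 (2, 3, 4 or 5) were lost, at 0.0504 to 0.160. Without animal 1 the Arrdc1 and Eif4ebp1 differences with inhibitor were -0.47 and 0.30, and that of Txnrd1 in S against NS was 0.42. The calls of Crebbp, Cdkn2b, Cited2, Myc, Fbxo30, Nr3c1 and Cebpd held in both comparisons under every alternative run.

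**Figure D4:**
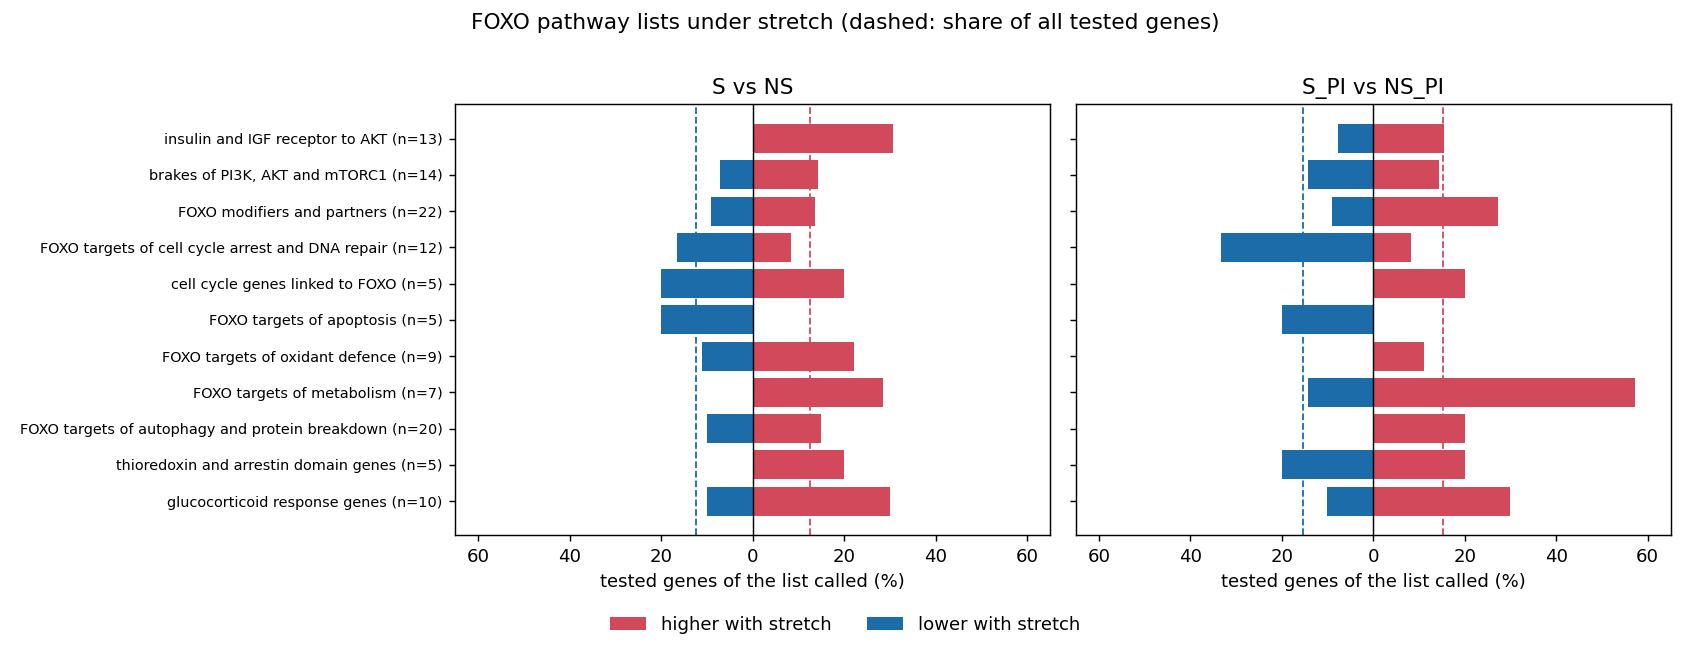
Bars give, for 11 of the 12 pathway lists (all but the FOXO paralogs), the percentage of tested genes called higher (right) and lower (left) with stretch at an adjusted p below 0.05, without inhibitor (left panel) and with it (right panel); n is the number of tested genes, and dashed lines are the shares over all 8320 genes. Lists of 5 to 22 genes scatter on both sides of the dashed lines, with genes called in both directions in most of them.

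The genes most like the other members in pattern, over the 20 libraries with each animal's mean subtracted, were these: Shroom3, Inhbb and Zfp865 for Trim63 (r = 0.92 each), RGD1310769, Scx and Glod4 for Sesn3 (0.97, 0.95 and 0.95), and Tspan3, Ercc3 and Dusp3 for Sesn1 (0.94, 0.91 and 0.90). For Irs2 they were Kat6a, Dusp6 and Dapk1 (0.89 each), for Ccng2 RGD1308428, Arfgef1 and Car8 (0.88, 0.85 and 0.83), and for Fbxo32 Atp6ap2, Rere and Fibin (0.90, 0.88 and 0.86). Txnip was followed, after Cdk1, by Sdcbp and Aprt (0.91 each). Foxo1 had the weakest likeness, with Slc7a3 and Vars at 0.76 and Vprbp at 0.75. None of these genes is another of the 10. The share of variation that went with stretch ordered the 9 genes as Sesn3 (58.8%), Pik3ip1 (58.3%), Sesn1 (52.1%), Fbxo32 (33.7%), Trim63 (21.4%), Foxo1 (15.4%), Irs2 (15.3%), Ccng2 (2.84%) and Txnip (2.43%).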

How the data were processed

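RNA from 20 libraries was sequenced from the 3' end (QuantSeq 3' FWD, 500 ng of RNA, per the labels' protocols). Per the submitters' processing notes the authors used STAR, HTSeq and DESeq2 with the rn6 genome. Their versions, settings and annotation: not given in the sources used here. Whole-number counts per gene symbol were deposited in 1 table. Records without a gene were left out of library sizes: 16.2 to 24.5% of records were marked as having no feature, and 35.5 to 57.7% as not unique. The authors also deposited a DESeq2 table of stretch against control, with a normalized mean signal, log2 fold changes and their errors, a test score, and p-values and adjusted p-values per gene; its log2 values are quoted, its p-values are not.

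From the counts, edgeR 4.0.16 (R 4.3.3) fitted all 20 libraries with a term for each of 4 groups and each of 5 animals, after filterByExpr (minimum count 10, equal to 5.55 CPM, in enough libraries) and TMM scaling. The quasi-likelihood F test was adjusted by the Benjamini-Hochberg method over 8320 genes, with a threshold of 0.05. The model leaves 12 residual degrees of freedom. Standard errors are the log2 fold change divided by the root of F, and 95% intervals use the moderated degrees of freedom. Libraries of 1 animal number pair the groups: the deposited table is described as controlling for rat, and deviations from group means correlated within an animal with r from 0.32 to 0.79 (30 pairs, median 0.48), against a median of -0.17 between animals, every one of the 20 libraries being most like one of its own animal. CPM are counts scaled to library size on the TMM scale, and patterns were compared on log2 CPM with a prior count of 2. The floor of 3 counts covers counting error only, while the 95% intervals come from the fit. They include how far the group differences vary from animal to animal, but not differences in level between animals, which the animal term removes. Reads carried no molecular identifiers that the labels describe. DESeq2 1.42.0, 2 other scalings, no filter, no animal term, a fit of only the groups compared, and leaving out each animal were tried. The model was tested on simulated data with known changes.

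The 10 genes, the 12 pathway lists and the 7 cell type lists were chosen with earlier results of these data known. Of each list, the called genes with the largest change were named, up to 4 a comparison, besides the paralogs of the 10; a few further called genes (Prkaa1, Smad4, Gabarapl1, Cdkn1a among them) were named after their values were seen. Symbols of 7743 tested genes matched a RefSeq symbol and 494 a synonym. RefSeq promoter windows are of build GRCr8, not that of the counts.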

Additional observations from a re-analysis of the deposited data

Results flagged for a closer look

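Foxo3 in the NS group was marked because 1 library lay far from the others: animal 1 had 0.462 CPM, which is 1 count, and the other 4 were at 0. Of 39 groups of values examined for the 10 genes, 1 was marked, and chance marks about 1 in 20. A single count is below the 3 counts that a library at 0 allows.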

How the results depend on the processing

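The stretch differences of the 9 tested genes kept their direction under all 11 alternatives run in both stretch comparisons, and no alternative brought 1 of the 9 past the threshold in an inhibitor comparison. Calls among the 9 in the stretch comparisons were computed as planned and are not reported, since those comparisons chose the genes. Counts of calls moved more. With no animal block in the model, the pairing of libraries was lost and the calls in S against NS went from 2075 to 818 genes and from 32 to 12 list genes, and in S_PI against NS_PI from 2534 to 1229 genes and from 37 to 15 list genes; in the average inhibitor effect they went from 2 to 0 genes and from 1 to 0 list genes. A fit of only the groups compared gave 1048 genes and 14 list genes in S against NS, and 27 genes and 1 list gene in NS_PI against NS, where the fit of all groups called 0. DESeq2 and the fit with no filter each called 4 genes and 1 list gene in NS_PI against NS, and 7 and 4 genes in the average inhibitor effect. Leaving out 1 animal at a time gave 18 to 27 list genes in S against NS (18 without animal 3), 0 to 3 genes and 0 to 1 list genes in NS_PI against NS (the highest without animal 1), and 0 to 4 genes and 0 to 1 list genes in the average inhibitor effect (4 genes without animal 1, 0 without animal 2, 3, 4 or 5). Fewer animals and fewer libraries are tested in these fits; the cause of the other changes was not tested.

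Inhibitor differences near 0 changed sign. With 1 animal left out, NS_PI against NS ran from -0.44 to 0.033 for Foxo1, -0.14 to 0.15 for Txnip, -0.11 to 0.071 for Sesn1, -0.20 to 0.24 for Irs2, -0.051 to 0.84 for Fbxo32 and -0.27 to 0.17 for Trim63, and S_PI against S from -0.43 to 0.11 for Foxo1, -0.10 to 0.20 for Txnip and -0.31 to 0.42 for Trim63. The interaction ran from -0.35 to 0.52 for Foxo1, -0.15 to 0.043 for Sesn3, -0.067 to 0.36 for Irs2 and -0.49 to 0.70 for Trim63, and the average effect from -0.21 to 0.062 for Pik3ip1, -0.12 to 0.17 for Txnip, -0.016 to 0.21 for Irs2 and -0.070 to 0.077 for Trim63. With no animal block, NS_PI against NS was -0.068 for Txnip and -0.059 for Irs2, S_PI against S was -0.0096 for Txnip, the interaction of Foxo1 was -0.016, and the average effect was -0.039 for Txnip and -0.046 for Trim63. With DESeq2, Trim63 was at 0.031, -0.044, -0.075 and -0.0065 in NS_PI against NS, S_PI against S, the interaction and the average, and in the fit of only the groups compared Irs2 was at -0.0061 in NS_PI against NS. Low counts limited Foxo3 in all libraries and Pik3ip1 in stretched ones. They limited Trim63 in most libraries of animals 4 and 5, stretched or not, and in animal 1 of S_PI. For Fbxo32 they limited the unstretched libraries and some stretched ones, such as those of animal 1.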
